A study of Mus musculus with 16 samples.

Results

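Heat shock proteins and their partners were followed across the 6 groups of the study: 56 genes of the 8251 genes that the arrays named by a single symbol, read by 79 of 12422 probe sets. A gene was a member if the symbol of its probe set began with Hsp or Dnaj, or with Cct and a digit, or was Tcp1; Hspg2, which encodes a matrix proteoglycan, was left out. Where several probe sets read 1 gene (17 members), the one with the highest mean over all arrays was used. By family the members were 2 HSP90 genes, 3 HSP110 genes, 8 HSP70 genes, the 2 genes of the mitochondrial chaperonin, 4 small heat shock protein genes, the HSP70 cofactor gene Hspbp1, 27 J-domain genes (3 DNAJA, 10 DNAJB and 14 DNAJC) and 9 genes of the cytosolic chaperonin CCT. Hsp90ab1, the constitutive cytosolic HSP90, was not among the single-symbol probe sets, and Dnajc19, on 2 probe sets that each carry more than 1 symbol, was left out by the rule.

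Chaperones bind unfolded or unassembled protein. HSP70 proteins work in cycles of ATP use that J-domain proteins start and HSP110 proteins reset, HSP90 proteins finish the folding of kinases and receptors, and the ring-shaped CCT complex folds actin and tubulin. Heat shock factor drives the stress-inducible members in the cytosol, while the unfolded protein response drives those of the endoplasmic reticulum (ER), and lymphocytes are known to raise chaperones of both compartments when they are activated and grow.

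The RNA came from CD4+CD8+ (double-positive) thymocytes of cultured fetal thymic lobes and was read on 16 Affymetrix mouse arrays. The groups were BDC2.5 transgenic NOD cells at 16 h of peptide (n = 3), the same cells with no peptide (n = 3), wild-type NOD cells (n = 2), BDC2.5 transgenic B6g7 cells at 16 h of peptide (n = 3), the same cells with no peptide (n = 3) and wild-type B6g7 cells (n = 2). BDC2.5 is the T cell receptor of a diabetogenic CD4 clone, the NOD strain is prone to autoimmune diabetes, and B6g7 is C57BL/6 with the NOD major histocompatibility haplotype, so both strains can present the same peptides to this receptor. Which peptide was used, at what dose, under which promoter the transgenes ran, whether wild-type cultures saw peptide and whether replicates were separate animals is not stated in the labels, so that p-values may measure technical spread. Of 13 double-positive thymocyte genes, Cd8a averaged an intensity of 2722 and Rag1 1915 over the arrays, above 99.4% and 98.5% of genes. Cd4 averaged 246 and Rag2 192, above 80.6% and 71.7%. Of 7 B cell genes, Ighm averaged 1205, above 97.8%. The others ranged from Blnk at 35.9, above 29.4%, to Cd79a at 121, above 62.8%. The purity of the cells was not tested.

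One array of each group stood apart before any group was compared. These were the highest-numbered arrays, number 3 of each BDC2.5 group and number 2 of each wild-type group. In these 6 arrays the 3' minus 5' probe set signal of beta-actin was 1.36 to 1.96 on the log2 scale, against 2.24 to 3.27 in the other 10, and that of Gapdh was 1.52 to 2.32, against 2.15 to 2.97. The 2 ranges of beta-actin did not overlap. Each BDC2.5 group held 1 such array of 3 and each wild-type group 1 of 2, and array medians lay between 54.7 and 59.1. In bulk samples such as these, fewer cells of a type and less RNA per cell cannot be told apart.

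Many chaperone genes were higher on these arrays. In 6 of 6 groups the highest-numbered array was the highest of its group for 18 of 56 members (32.1%), against 11.2% of all genes. It was the lowest in 6 of 6 groups for 2 members (3.57%), the J-domain genes Dnajc4 and Dnajc17, against 11.2% of all genes. The median gap to the mean of the group's other arrays was 0.17 on the log2 scale over the members and -0.06 over all genes. One principal component of the 56 members held 60.1% of their variance, and the 6 arrays took its highest values (2.48 to 3.78, against -3.66 to -0.52). This was not particular to the members. The first component of 3000 probe sets from the whole table held 57.9%, and the same 6 arrays were highest there too (6.73 to 37.7, against -26.4 to 3.14). The median SD of a member within groups was 0.30 on the log2 scale, against 0.20 for all genes.

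The members with the widest spread show how far the gap went. Cct8, a subunit of the CCT ring, had intensities of 282 to 693 (median 491) on the 6 highest-numbered arrays, against 66.0 to 173 (median 111) on the other 10, with a median gap of 4.02-fold. No array of the first set came as low as any of the second. Dnajb6, a J-domain protein that holds back protein aggregation, had 789 to 1259 against 161 to 462 (2.89-fold), again without overlap. Dnajc7, which hands clients between HSP70 and HSP90, had 576 to 1186 against 214 to 453 (2.75-fold). Dnaja1, a cytosolic J-domain partner of HSP70, had 802 to 1600 against 262 to 642 (2.70-fold). Hspa5 (BiP), the HSP70 of the ER, had 460 to 1669 against 185 to 528 (2.36-fold), and there the ranges overlapped. Within the CCT complex, whose subunits are built into rings in equal number, the gap was uneven: 4 of 9 genes (Cct8, Cct4, Cct6a and Tcp1) were highest on these arrays in 6 of 6 groups, while Cct2 was 0.17 lower and Cct7 0.09 lower on the log2 scale at the median. The same held for HSP70, where Hspa5 had a gap of 1.24, Hspa8 of 0.21 and Hspa2 of -0.09.

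**Figure D1:**
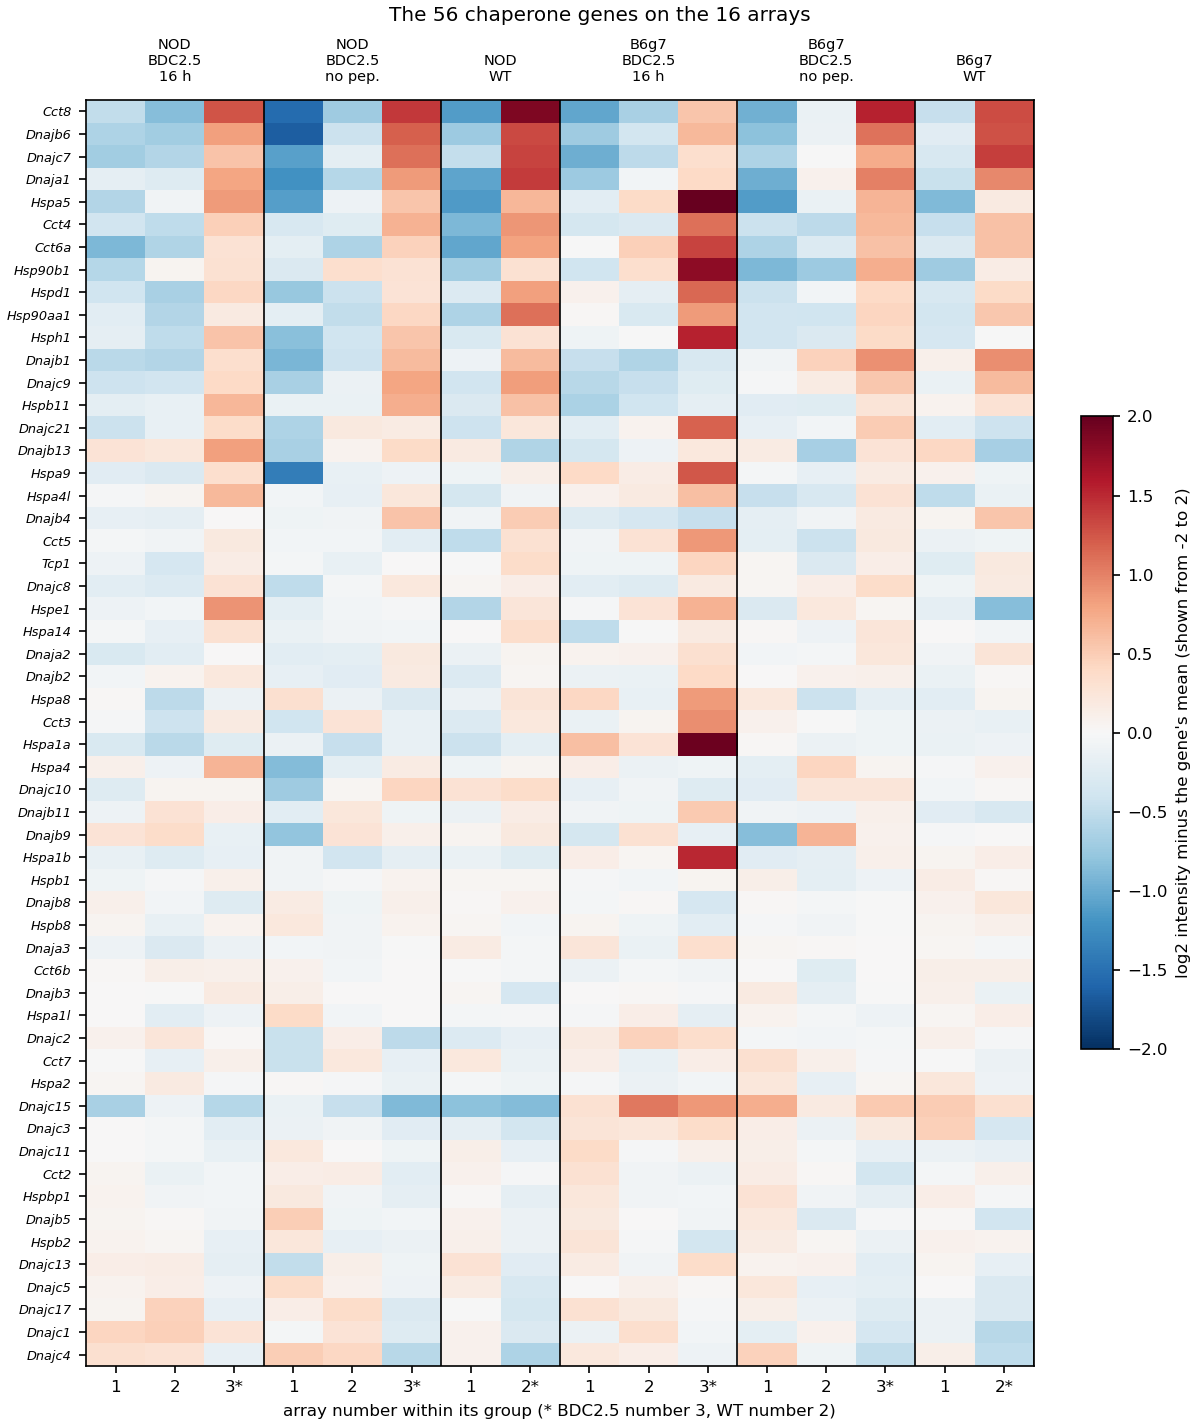
Each row is 1 of the 56 chaperone genes and each column 1 of the 16 arrays; colour gives the log2 intensity minus the gene's mean over all arrays, from -2 (blue) to 2 (red). Columns marked with a star, the highest-numbered array of each group, are red for the upper rows from Cct8 to Hsph1, and Dnajc15 is blue in the NOD columns and red in the B6g7 columns.

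How chaperones stood after 16 h of peptide was asked first in BDC2.5 thymocytes of the B6g7 strain. With limma, 0 of 56 members were called at an adjusted p under 0.05, where 1 of all 12422 probe sets was (0.00805%, and 3 with the replicate number as a block). An unadjusted p under 0.05 was found for 3 members. Such counts were not set beside the share of all probe sets, here or in the later comparisons. They therefore cannot show whether members passed that level more often than other genes. Of the 56 members, 33 were higher and 23 lower at 16 h, with a median log2 difference of 0.11 against 0.00 for all genes. Without the B6g7 16 h array numbered 3 the median of the members was 0.02, with 32 higher. That removal kept the no-peptide array numbered 3, so it was uneven, as are the later ones of 1 such array. Without the highest-numbered arrays of every group 38 members were higher (median 0.033). The 4 largest positive values were those of Hspa1a, Hspa5, Hsp90b1 and Cct6a, and the 4 largest negative ones those of Dnajb1, Dnajc9, Cct8 and Dnajc7.

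Hspa1a and Hspa1b, the stress-inducible HSP70 genes that heat shock factor is best known for, lie near each other and have nearly the same sequence. Upstream of their starts the RefSeq promoters (GRCm38.p6, minus strand, chr17:34972157-34972406 for Hspa1a and chr17:34959239-34959488 for Hspa1b) carried the same base at 247 of 250 positions (98.8%). They are shown because these 2 genes gave the clearest values among the stress-inducible members, and the capitals mark a match to GAANNTTC, a core of the heat shock element, at -104 to -97 from the start.
Hspa1a: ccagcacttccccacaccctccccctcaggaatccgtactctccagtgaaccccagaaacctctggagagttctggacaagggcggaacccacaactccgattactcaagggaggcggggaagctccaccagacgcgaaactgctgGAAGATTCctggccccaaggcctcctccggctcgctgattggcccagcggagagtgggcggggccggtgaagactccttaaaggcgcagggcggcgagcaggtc
Hspa1b: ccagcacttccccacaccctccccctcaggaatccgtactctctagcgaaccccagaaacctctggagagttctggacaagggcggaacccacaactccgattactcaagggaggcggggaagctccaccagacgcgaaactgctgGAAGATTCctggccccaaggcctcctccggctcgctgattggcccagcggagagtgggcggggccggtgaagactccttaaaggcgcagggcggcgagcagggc
A match to GAANNTTC or to TTCNNGAA, which both read the same on either strand, was found in 12 of the 48 members with a promoter in the table (25.0%) and in 14.5% of all 27025 genes (12.8% of their 32851 promoter windows).

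Hspa1a had intensities of 76.7, 61.6 and 198 in B6g7 cells at 16 h of peptide, against 51.4, 46.6 and 47.8 in those with no peptide. All 3 peptide arrays lay above all 3 arrays without it, array number 3 far above the rest. The log2 difference was 1.01 ± 0.30 (SE; 2.01-fold, 95% interval 0.36 to 1.66, unadjusted p = 0.00516 and adjusted p = 1 by limma), and the 16 h array numbered 3 set its size: without it the value was 0.50. Hspa1b had 21.4, 20.1 and 55.4 at 16 h, against 16.7, 17.3 and 20.9 with no peptide, which overlapped by 1 array and gave 0.66 ± 0.27 (unadjusted p = 0.0296). Every value of Hspa1b lay below the median of its array, also on the 16 h array numbered 3, whose median was 56.05. The deposited values come with no detection call. Whether each probe set reads 1 or both of these near-identical transcripts was not tested.

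The other HSP70 and HSP110 genes of the cytosol gave smaller values. Hspa8 (Hsc70), the constitutive HSP70, had 1710, 1166 and 2318 at 16 h and 1485, 958 and 1141 with no peptide. Its arrays overlapped, and the difference of 0.50 ± 0.27 became 0.24 when the highest-numbered arrays were left out. Hsph1, an HSP110 exchange factor for HSP70, had 190, 200 and 585 at 16 h, against 155, 164 and 264 with no peptide (0.58 ± 0.45). Each same-numbered pair was higher at 16 h. Leaving out the 16 h array numbered 3, with the no-peptide array numbered 3 kept, brought the value to 0.05. Hsp90aa1, the inducible cytosolic HSP90, gave 0.31 ± 0.45.

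In the ER, Hspa5 and Hsp90b1 (GRP94), the HSP70 and HSP90 of that compartment, gave values of like size. Hspa5 had 353, 528 and 1669 at 16 h of peptide, against 187, 369 and 649 with no peptide. Hsp90b1 had 235, 392 and 1075 at 16 h, against 166, 187 and 513 with no peptide. For both, every same-numbered pair was higher at 16 h while the groups overlapped, since the no-peptide array numbered 3 exceeded both lower-numbered 16 h arrays. The differences were 0.93 ± 0.67 and 0.88 ± 0.54 (unadjusted p = 0.189 and 0.127 by limma), with 0.28 and 0.27 when the 16 h array numbered 3 was left out. That removal kept the no-peptide array numbered 3. The highest-numbered arrays ran high for both genes (median gaps 1.24 and 0.93), so it took that shift out of 1 side only. Their promoters are shown (GRCm38.p6, chr2:34771840-34772089 on the plus strand for Hspa5 and chr10:86705445-86705694 on the minus strand for Hsp90b1) because both hold the ER stress element, which is CCAAT, any 9 bases and CCACG, searched on both strands and given in capitals.
Hspa5: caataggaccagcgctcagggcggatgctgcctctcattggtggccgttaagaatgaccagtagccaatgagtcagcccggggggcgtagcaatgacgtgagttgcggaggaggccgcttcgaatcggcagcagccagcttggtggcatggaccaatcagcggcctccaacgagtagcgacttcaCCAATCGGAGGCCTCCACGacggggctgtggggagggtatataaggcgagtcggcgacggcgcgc
Hsp90b1: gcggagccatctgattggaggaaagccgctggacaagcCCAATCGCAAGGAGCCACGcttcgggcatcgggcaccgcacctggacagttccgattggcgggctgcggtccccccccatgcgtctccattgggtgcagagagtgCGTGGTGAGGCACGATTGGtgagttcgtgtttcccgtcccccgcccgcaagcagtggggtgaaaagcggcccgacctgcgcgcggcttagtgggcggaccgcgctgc
The match lay at -65 to -47 in Hspa5, and at -212 to -194 and, on the other strand, at -107 to -89 in Hsp90b1. Of 48 members with a promoter, 3 held the element (6.25%; the third was Dnajc3), against 0.130% of all genes and 0.113% of all windows.

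J-domain partners of BiP gave smaller values, and their difference from that of Hspa5 was not tested. Dnajb9 (ERdj4) had 31.5, 49.7 and 36.1 at 16 h, against 22.3, 64.4 and 42.7 with no peptide (-0.04 ± 0.34). Dnajb11 (ERdj3) gave 0.14 ± 0.20 and Dnajc3 (p58IPK) 0.21 ± 0.20. The arrays of Dnajc3 did not overlap, at 752, 731 and 810 with peptide, against 687, 580 and 717 without, though the difference was about as large as its error.

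Dnajb1 (HSP40), the inducible J-domain partner of cytosolic HSP70, stood on the opposite side from Hspa1a. It had 60.5, 54.5 and 66.7 at 16 h of peptide in B6g7, against 79.1, 114 and 157 with no peptide. All 3 peptide arrays were below all 3 without it, at -0.89 ± 0.39 (1.86-fold lower, unadjusted p = 0.0382, adjusted p = 1). Dnajc9, a J-domain histone chaperone, had 345, 368 and 430 at 16 h, against 501, 572 and 736 with no peptide (-0.65 ± 0.39), also without overlap. Dnajc7 gave -0.43 ± 0.65 and Cct8 -0.52 ± 0.94, both with overlapping arrays. In all, arrays did not overlap for 3 members higher with peptide (Hspa1a, Dnajc2 and Dnajc3), beside 3.83% of all genes, and for 3 lower (Dnajb1, Dnajb4 and Dnajc9), beside 3.05%; Dnajc2 and Dnajb4 were named after their values were seen.

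Of the mitochondrial chaperones, Hspa9 (mortalin), the HSP70 of the matrix, had 1040, 877 and 1874 at 16 h, against 770, 702 and 886 with no peptide in B6g7. The 2 groups overlapped by 1 array, and the difference was 0.61 ± 0.35. The chaperonin pair gave 0.38 ± 0.43 for Hspd1 (HSP60) and 0.33 ± 0.31 for its lid Hspe1 (HSP10). Without the 16 h array numbered 3 these values were 0.29 for Hspa9, -0.022 for Hspd1 and 0.14 for Hspe1. Of the 9 CCT genes, 6 were higher and 3 lower with peptide (median 0.12), and 3 were higher and 6 lower (median -0.038) without that array. The no-peptide array numbered 3 was kept there. It was the highest of its group for Hspd1, Cct8, Cct4, Cct6a and Tcp1, so this removal was uneven. The widest values were Cct6a at 0.71 ± 0.52, Cct5 at 0.50 ± 0.26 and Cct8 at -0.52, while Tcp1 gave 0.12 ± 0.19, Cct2 0.11, Cct3 0.29, Cct4 0.26 and Cct7 -0.10. Hspb1 (HSP25), the classical small heat shock protein, had 12.0 to 12.9 at 16 h and 10.9 to 13.4 with no peptide, near the bottom of the scale in both.

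A single array was the highest for many members. The B6g7 16 h array numbered 3 was the highest of all 16 arrays for 19 of 56 members (33.9%), against 10.1% of all genes. On it Hspa1b was 2.59 times, Hspa1a 2.58 times, Hspa5 2.28 times, Hsp90b1 2.09 times, Hsph1 1.96 times and Hspa9 1.80 times the next highest array. Markers of other cells also moved with this comparison: of 16 myeloid and dendritic genes 11 were higher, with a summed intensity of 1604 to 2067 at 16 h and 1156 to 1563 with no peptide, and none was at 0. The 13 double-positive thymocyte genes summed to 9414 to 14356 at 16 h, against 15137 to 15896, with 10 of them lower. In NOD cells the same 13 summed to 12302 to 13752 at 16 h, against 14100 to 18048. Their part in the chaperone values was not tested.

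**Figure D2:**
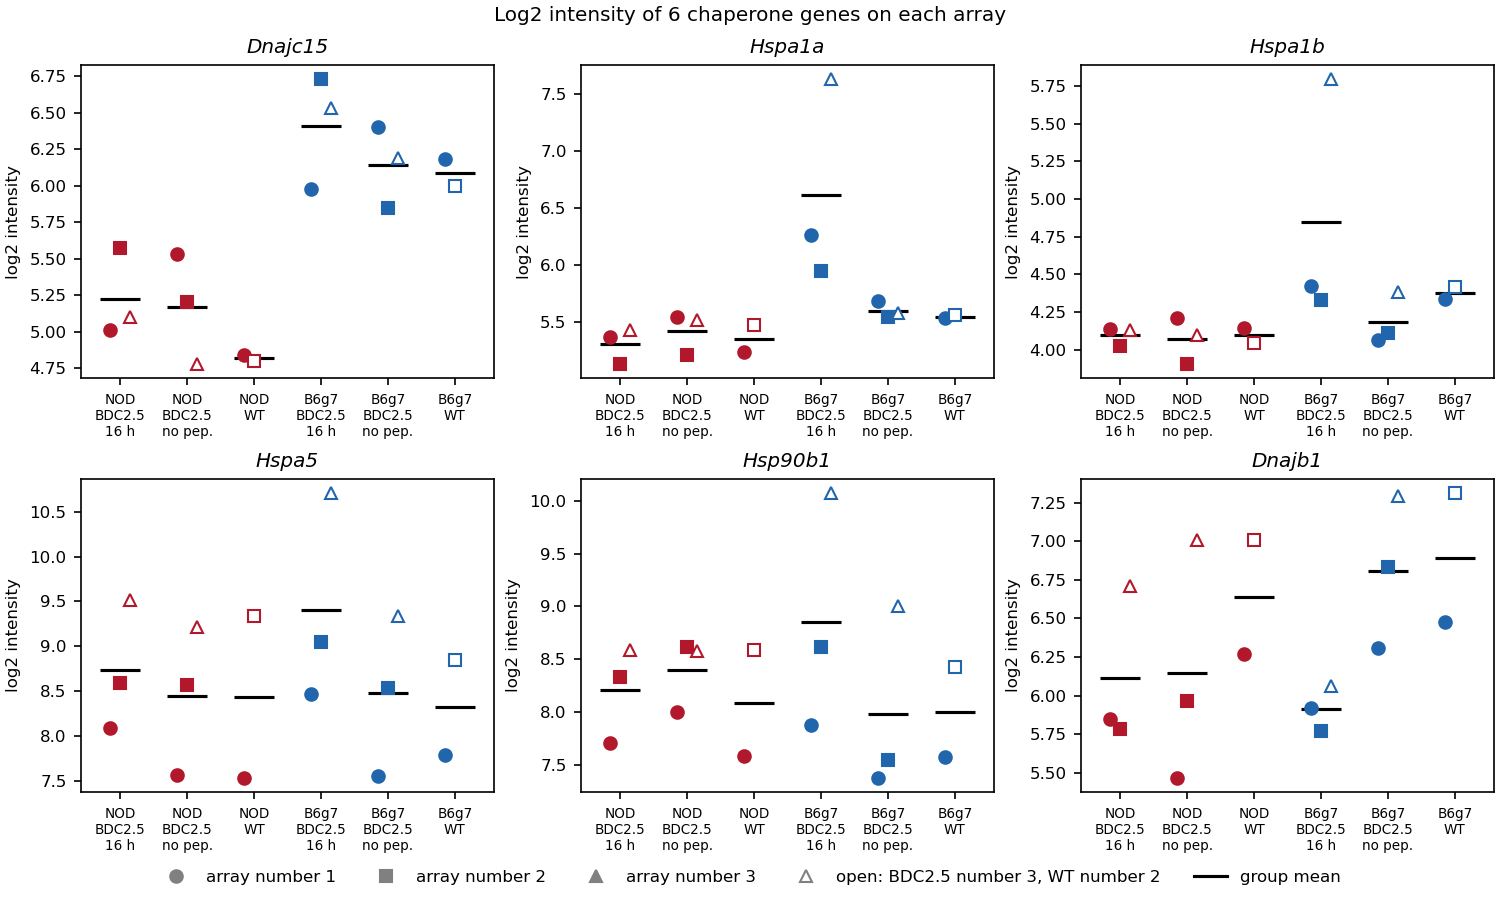
Log2 intensity of 6 chaperone genes on each array, NOD groups (red) left of B6g7 groups (blue); bars are group means and open symbols the highest-numbered arrays. Dnajc15 separates the strains on all 16 arrays, while Hspa1a and Hspa1b stand out at 16 h of peptide in B6g7, most of all on array number 3.

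In NOD cells the same peptide comparison gave smaller values. With limma 0 of 56 members and 0 of 12422 probe sets (0%) were called, and 0 members had an unadjusted p under 0.05. Members higher at 16 h numbered 35 and lower ones 21, with a median of 0.03, against -0.03 for all genes. The order turned when single arrays were left out: 24 were higher without the no-peptide array numbered 1 (median -0.019), and 23 without the 16 h array numbered 3 (median -0.040). Without the highest-numbered arrays of every group 28 were higher (median 0.00075). Hspa1a had 41.2, 35.1 and 43.1 in NOD cells at 16 h of peptide, against 46.7, 37.0 and 45.8 with no peptide. Each 16 h array was below its same-numbered partner, and the difference was -0.11 ± 0.30. Hspa1b gave 0.03 ± 0.27.

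Among the NOD values, the largest were on the positive side. Hspa4, an HSP110 gene, had 538, 469 and 801 at 16 h, against 275, 436 and 561 with no peptide (0.53 ± 0.27), higher in 3 of 3 pairs with overlap. Dnajb13, known from the axoneme of sperm, gave 0.51 ± 0.36. Hspa9 gave 0.48 ± 0.35, with the lowest of the 16 arrays, 302, on the no-peptide array numbered 1, and without that array the value was 0.06. Dnaja1 gave 0.43 ± 0.70, Hspe1 0.34 ± 0.31, Dnajb9 0.30 ± 0.34 and Hspa5 0.28 ± 0.67. On the negative side were Cct6a at -0.29 ± 0.52, Dnajb4 at -0.25 ± 0.21, Hspa1l, a testis form of HSP70, at -0.21 ± 0.12 and Hsp90b1 at -0.19 ± 0.54. Dnajb1 had 57.5, 55.1 and 105 at 16 h, against 44.2, 62.4 and 129 (-0.03 ± 0.39), with no separation of the groups. Without overlap were 1 member higher (Dnajc1, an ER membrane J-domain protein named after its value was seen, 0.40), beside 2.27% of all genes, and 1 lower (Dnaja3, a mitochondrial one, likewise, -0.12), beside 3.25%.

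Averaged over both strains, 41 of 56 members were higher and 15 lower at 16 h of peptide, with a median of 0.06 against -0.02 for all genes, of which 43.0% were higher. Without the highest-numbered arrays 33 members were higher (median 0.026), and without the B6g7 16 h array numbered 3 alone 32 were (median 0.021). Of the members 0 were called by limma, 2 had an unadjusted p under 0.05, and 3 of all probe sets were called (0.0242%, and 7 with the replicate block). Those 2 members were Dnajc2, a ribosome-bound J-domain protein that acts on nascent chains, at 0.39 ± 0.13 (unadjusted p = 0.0114), and Hspa9 at 0.55 ± 0.24 (unadjusted p = 0.0425), both with adjusted p = 0.998. Dnajc2 had 597, 667 and 572 in NOD cells at 16 h, against 414, 621 and 391 with no peptide, and 639, 776 and 721 in B6g7 cells at 16 h, against 548, 543 and 547. The B6g7 groups were separate and the NOD groups overlapped by 1 array. When single arrays were left out, Dnajc2 ranged between 0.32 and 0.49 and Hspa9 was 0.34 without the NOD no-peptide array numbered 1, whereas Hspa1a moved between 0.19 and 0.62 around 0.45 ± 0.21 and Hspa5 between 0.28 and 0.84 around 0.61 ± 0.48. Dnajb1 gave -0.46 ± 0.28 and Dnajc9 -0.39 ± 0.27.

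Whether the peptide response of the chaperones differed between the strains was tested as NOD minus B6g7. With limma 0 of 56 members and 0 of 12422 probe sets (0%) were called, and 1 member had an unadjusted p under 0.05. That member was Hspa1a, at -1.12 ± 0.43 (95% interval -2.05 to -0.20, unadjusted p = 0.0207, adjusted p = 1), and -0.61 without the B6g7 16 h array numbered 3. After it came Hsp90b1 at -1.06 ± 0.76, Cct6a at -1.0 ± 0.73 and Hspa8 at -0.68 ± 0.39 on the negative side, which were -0.45, -0.63 and -0.44 without that array. On the positive side were Dnajb1 at 0.86 ± 0.55, Cct8 at 0.77 ± 1.33, Hspa4 at 0.65 ± 0.38 and Dnaja1 at 0.60 ± 0.98, of which Cct8 was 1.24 without it. The Hspa4 value is that of its brightest probe set, and dimmer ones differed from it in sign for the B6g7 response, as given below. Members were negative in 32 of 56 cases, with a median of -0.04 against -0.03 for all genes, and in 24 cases without that array. Its removal kept the other arrays numbered 3, so the values without it hold their shift. The median gap of the highest-numbered arrays was 2.01 for Cct8, 1.04 for Cct6a, 0.93 for Hsp90b1 and 0.21 for Hspa8. Without the highest-numbered arrays of every group 23 members were positive (median -0.060). The intervals reach well past 1 on the log2 scale for most of the genes named. A difference of that size between strains was thus not detectable in this fit, with 3 arrays a group and no term for array number. For the strain difference of Cct6a at 16 h, the SE was 0.52 in this fit and 0.21 with a term for the highest-numbered arrays. With that term or the replicate block, 0 members and 0 probe sets were called for the strain difference of the response.

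**Figure D3:**
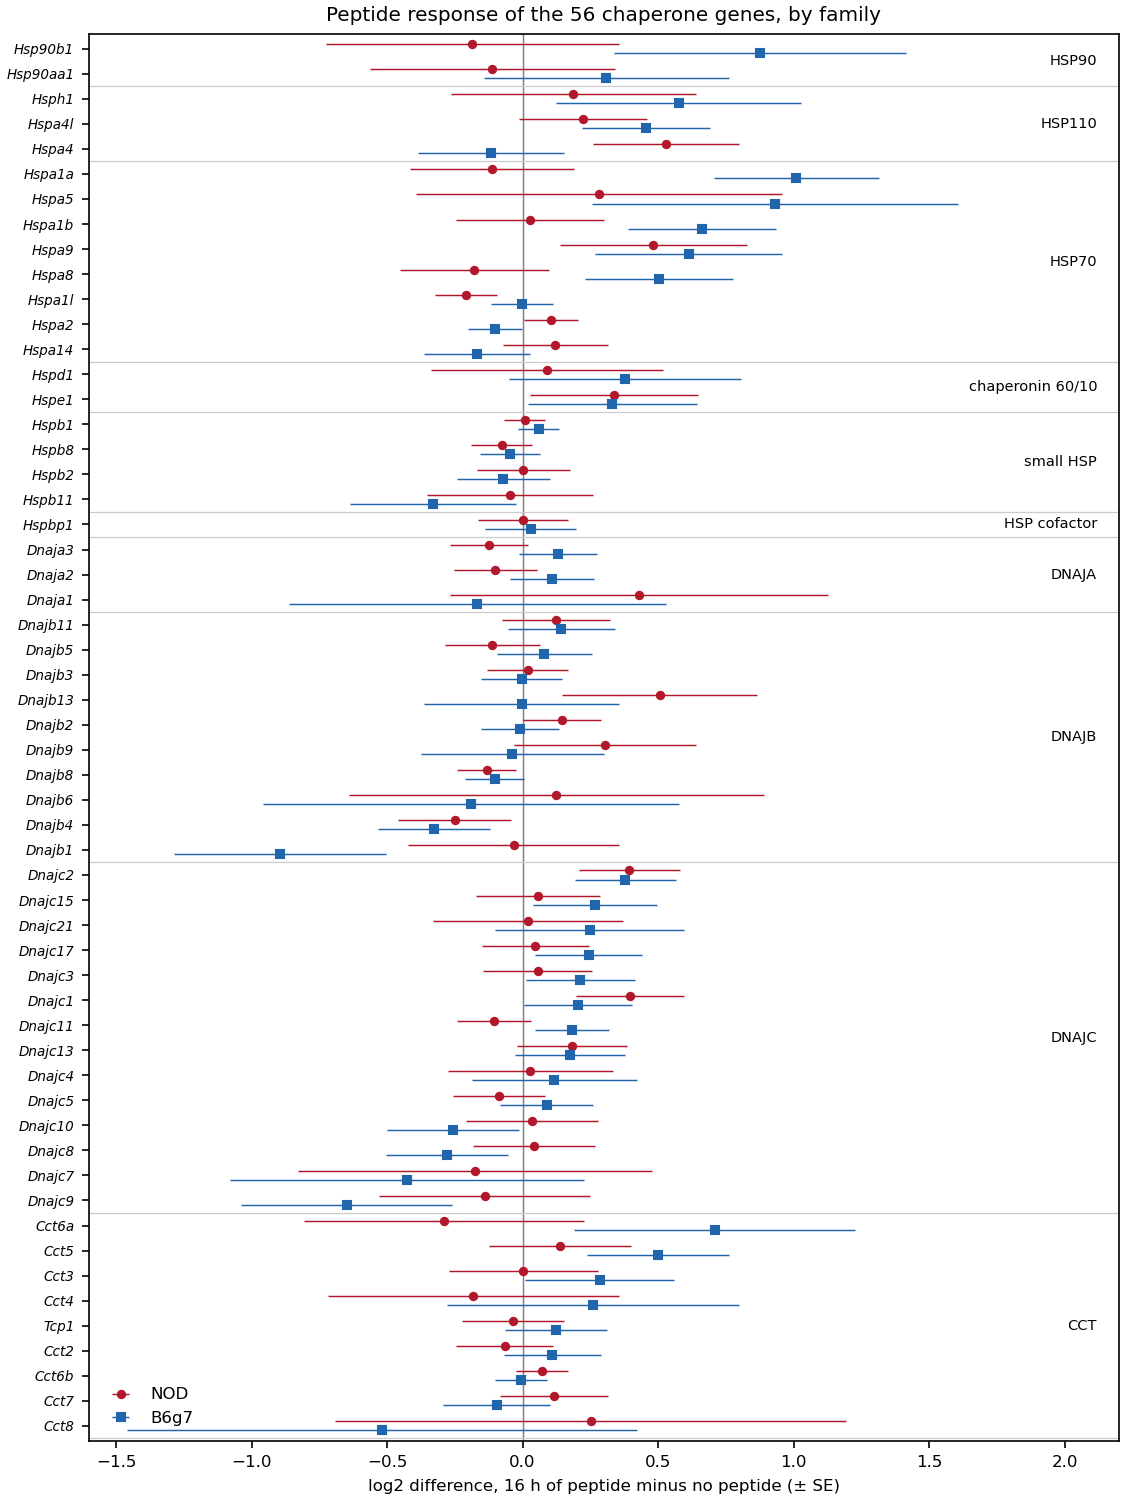
Log2 difference of 16 h of peptide minus no peptide for the 56 genes by family, in NOD (red circles) and B6g7 (blue squares), with standard errors of the limma fit. In B6g7 the HSP70 genes Hspa1a, Hspa5 and Hspa1b lie to the right and Dnajb1 to the left; no member passed the threshold in either strain.

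The strain comparisons asked how NOD cells differed from B6g7 cells. Dnajc15 was lower in NOD cells and was the 1 member called in any comparison. It encodes a J-domain protein of the mitochondrial inner membrane, known as MCJ, that holds back respiratory complex I. In NOD cells it had intensities of 32.3, 47.6 and 34.3 at 16 h of peptide, against 63.1, 106 and 92.5 in B6g7 cells. With no peptide it had 46.3, 36.8 and 27.5 in NOD cells, against 84.6, 57.6 and 72.9 in B6g7 cells. Wild-type cells had 28.7 and 27.9 in NOD, against 72.6 and 63.8 in B6g7. All 8 NOD arrays were below all 8 B6g7 arrays, with peptide, without it and without the transgene.

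At 16 h the log2 difference of Dnajc15 was -1.19 ± 0.23 (2.27-fold lower, 95% interval -1.68 to -0.69, adjusted p = 0.0360 by limma, lower in 3 of 3 pairs). It was -0.97 ± 0.23 without peptide (adjusted p = 0.167) and -1.27 ± 0.28 in wild-type cells (adjusted p = 0.189), of like size but not called. Averaged over the 3 conditions, a comparison added after these values were seen, Dnajc15 gave -1.14 ± 0.14 (2.21-fold lower, interval -1.45 to -0.84, adjusted p = 0.00061), the 33rd smallest p of 12422 probe sets. Leaving out single arrays kept this average between -1.21 and -1.08, and without the highest-numbered arrays it was -1.05. The 16 h call alone was less firm: it was lost without the highest-numbered arrays (-1.06, adjusted p = 0.304) and without the NOD 16 h array numbered 1 (-1.08, adjusted p = 0.206) or 3 (-1.12, 0.154) or the B6g7 16 h array numbered 2 (-1.03, 0.136) or 3 (-1.13, 0.162). A single probe set reads the gene, and values of its single probes were not used here. In NOD cells all values of Dnajc15 lay below the array medians of 54.7 to 59.1, and they come with no detection call.

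Myeloid and dendritic markers also ran lower in NOD cells. Their 16 genes summed to 857 to 1130 in NOD cells at 16 h, against 1604 to 2067 in B6g7 cells, with 13 of 16 lower. The sums were 859 to 1244 in NOD without peptide, against 1156 to 1563, and 881 to 1108 in wild-type NOD cells, against 1307 to 1619 in wild-type B6g7 cells. The strains overlapped only without peptide, and no marker was at 0. Their part in the Dnajc15 difference was not tested. Between 16 h of peptide and none, Dnajc15 differed by 0.06 ± 0.23 in NOD and by 0.27 ± 0.23 in B6g7.

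At 16 h of peptide, 1 of 56 members was called, downward, where 61 of all probe sets were (0.491%; 46 lower, 0.370%), and 129 with the replicate block, 2 of them members. Members were lower in NOD in 33 of 56 cases, with a median of -0.05 against 0.00 for all genes, and in 29 cases (median -0.0047) without the B6g7 array numbered 3. Without the highest-numbered arrays of every group 20 were higher (median -0.068). Of the 8 HSP70 genes 6 were lower (median -0.62), as were 6 without that array, at a median of -0.21. Hspa1a gave the largest value of all members: its 41.2, 35.1 and 43.1 in NOD lay below 76.7, 61.6 and 198 in B6g7, a difference of -1.30 ± 0.30 (2.46-fold lower, unadjusted p = 0.000802, adjusted p = 0.117). With the replicate number as a block it passed (adjusted p = 0.0363), and likewise with a term for the highest-numbered arrays (0.0192). Without the B6g7 array numbered 3 the difference was -0.79 with adjusted p = 0.0434, and without that numbered 2 it was -1.63 with adjusted p = 0.0296. Hspa1a was not called under any other setting tried. Among those were quantile normalization, only the groups compared, and the loss of the B6g7 array numbered 1 or of any NOD array. Hspa1b had 17.6, 16.3 and 17.5 in NOD, against 21.4, 20.1 and 55.4 in B6g7 (-0.75 ± 0.27, adjusted p = 0.627), and -0.28 without that array numbered 3.

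The further negative values at 16 h spread over several compartments. Cct6a had 125, 154 and 285 in NOD, against 231, 325 and 595 in B6g7, lower in 3 of 3 pairs (-1.01 ± 0.52, adjusted p = 0.971). A term for the highest-numbered arrays made it a call (adjusted p = 0.0238), but a second, dimmer probe set of Cct6a gave 0.27. Hspa5 gave -0.67 ± 0.67, Hspa9 -0.66 ± 0.35, Hsp90b1 -0.64 ± 0.54, Hspa8 -0.58 ± 0.27, Hspd1 -0.57 ± 0.43 and Hsph1 -0.52 ± 0.45. Each of these overlapped between the strains but was lower in NOD in 3 of 3 same-numbered pairs, and each was smaller in size without the highest-numbered arrays, at -0.41, -0.54, -0.22, -0.38, -0.48 and -0.30. Without the B6g7 array numbered 3 alone the values were -0.022 for Hspa5, -0.34 for Hspa9, -0.035 for Hsp90b1, -0.34 for Hspa8, -0.17 for Hspd1, 0.0058 for Hsph1 and -0.64 for Cct6a. Higher in NOD were Dnajb13 at 0.52 ± 0.36, Hspb11, which is a transport protein of cilia despite its name, at 0.51 ± 0.31, Cct8 at 0.35 ± 0.94 and Dnajc1 at 0.34 ± 0.20. Arrays did not overlap for 3 members higher in NOD (Dnajb13, Dnajb4 and Cct6b), beside 6.47% of all genes, and for 5 lower (Dnajc15, Hspa1a, Hspa1b, Dnajc3 and Dnaja2), beside 5.67%; Dnajb4, Cct6b and Dnaja2 were named after their values were seen. The strain and peptide comparisons share the 16 h arrays of B6g7.

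**Figure D4:**
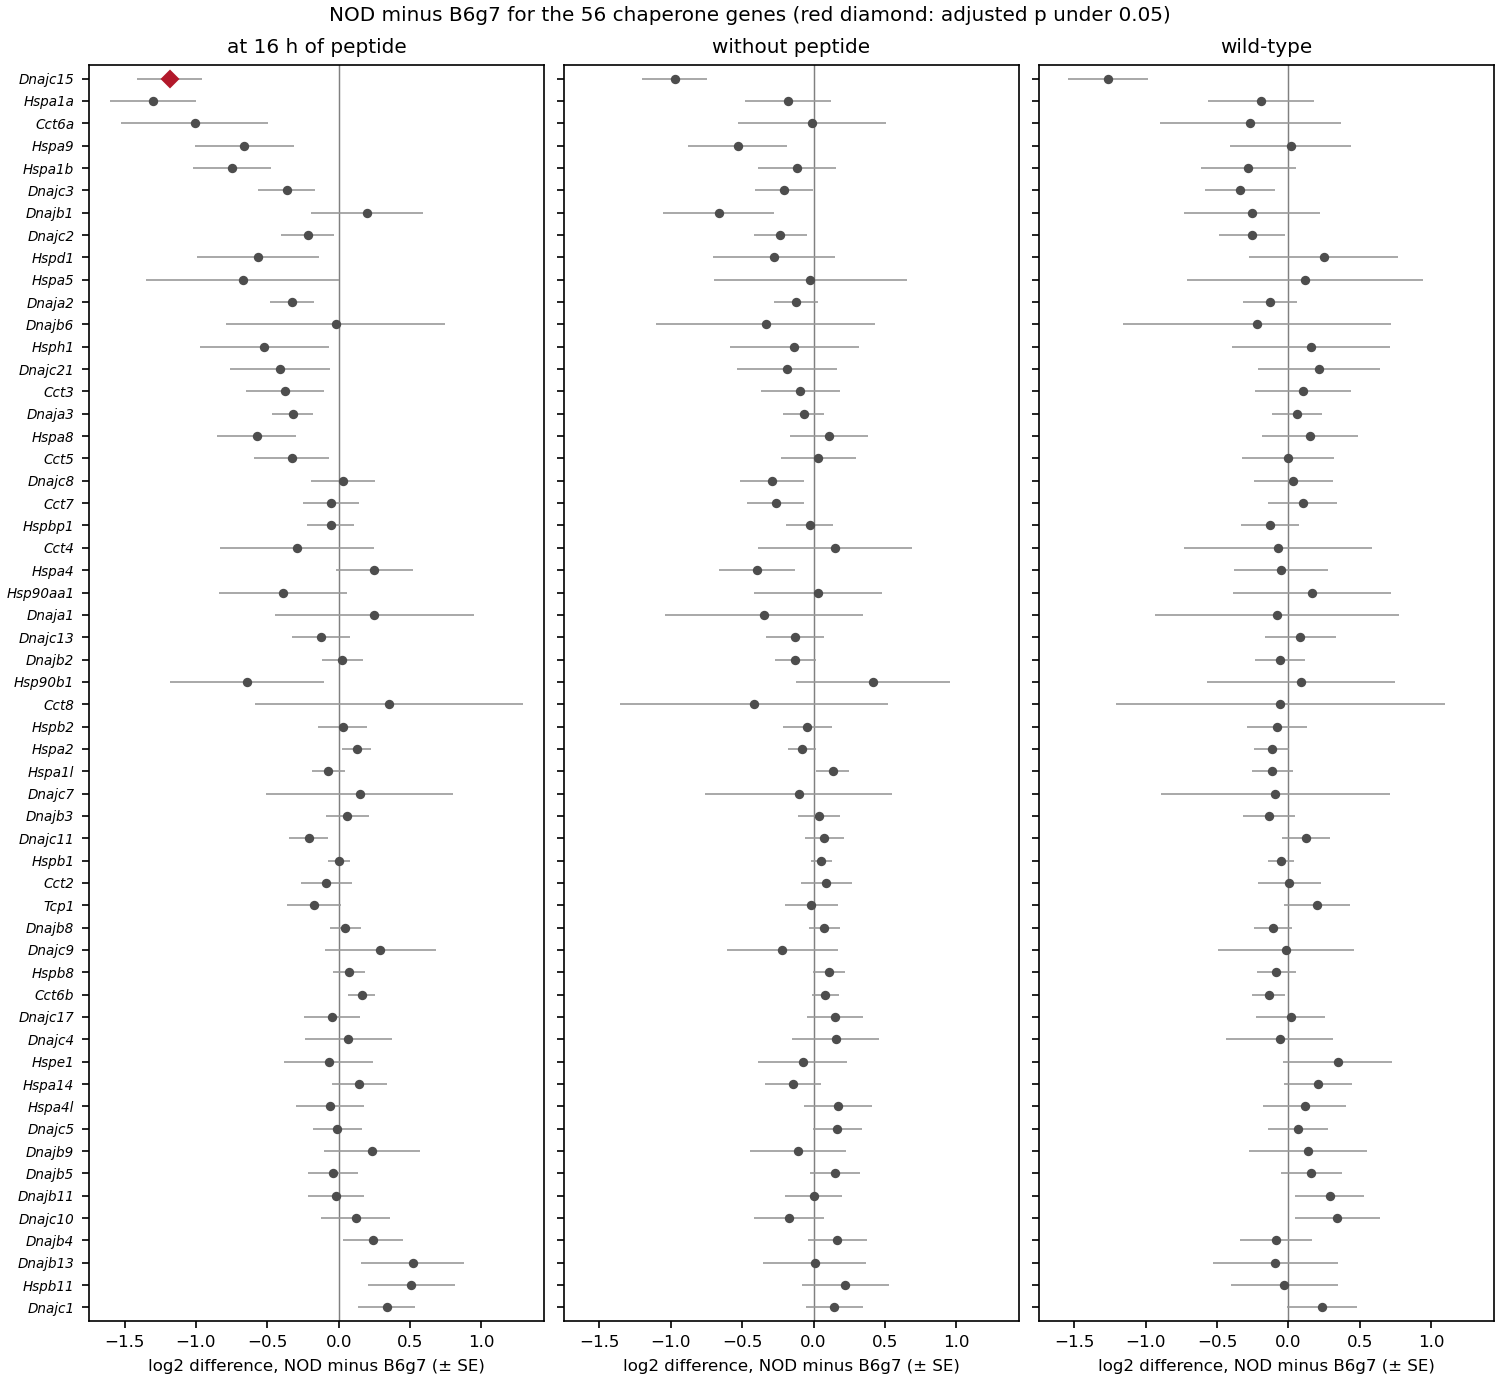
Log2 difference of NOD minus B6g7 for the 56 genes at 16 h of peptide, without peptide and in wild-type cells, with standard errors of the limma fit; rows are ordered by the mean of the 3 differences. Dnajc15 lies near -1 in all 3 panels and is the single red diamond (adjusted p under 0.05, at 16 h), while Hspa1a and Cct6a lie far left only at 16 h.

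Without peptide, 0 of 56 members were called between the strains by limma, where 33 of all probe sets were (0.266%, and 69 with the replicate block), and 1 member, Dnajc15, had an unadjusted p under 0.05. Hspa1a gave -0.18 ± 0.30 there, from 46.7, 37.0 and 45.8 in NOD and 51.4, 46.6 and 47.8 in B6g7, with overlap. Dnajb1 gave -0.66 ± 0.39, Hspa9 -0.53 ± 0.35, Cct8 -0.42 ± 0.94 and Dnaja1 -0.35 ± 0.70, while Hsp90b1 gave 0.42 ± 0.54 and Hspb11 0.22 ± 0.31. The Hspa9 value rested on the NOD array numbered 1 and was -0.11 without it. The median over members was -0.06, against 0.03 for all genes, with 23 higher, but 31 were higher without the NOD array numbered 1 (median 0.025) and 30 without the B6g7 array numbered 3 (median 0.027). Without the highest-numbered arrays of every group 24 were higher (median -0.043). Arrays did not overlap for 0 members higher, beside 3.01% of all genes, and for 2 lower (Dnajc15, and Dnaja3 at -0.07, named after its value was seen), beside 2.39%.

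In wild-type cells 0 members were called by limma, where 11 of all probe sets were (0.0886%; 0.0161% higher and 0.0725% lower; 32 with the replicate block), and again Dnajc15 alone had an unadjusted p under 0.05. After it came Dnajc3 at -0.34 ± 0.25, with 556 and 487 in NOD and 875 and 496 in B6g7, and Hspa1b at -0.28 ± 0.33. The positive side held Hspe1 at 0.34 ± 0.38, Dnajc10 (ERdj5), a disulfide reductase of the ER, at 0.34 ± 0.30, and Dnajb11 at 0.29 ± 0.24. With 2 arrays a group, 8 members were lower and 3 higher without overlap, beside 13.3% and 6.69% of all genes. In the average over the 3 conditions, 161 probe sets were called (1.30%; 0.588% higher and 0.708% lower; 271 with the replicate block). Dnajc15 was the 1 member among them, 3 others had an unadjusted p under 0.05 (Hspa1a at -0.56 ± 0.19, Hspa1b at -0.38 ± 0.17 and Dnajc3 at -0.30 ± 0.13), and Dnajc15 was also the 1 member whose 8 NOD arrays all lay below the 8 of B6g7, beside 0.461% of all genes.

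The last comparison set BDC2.5 cells with no peptide against wild-type cells of the same strain. In NOD, 0 of 56 members were called by limma beside 7 probe sets (0.0564%; 0.00805% higher and 0.0483% lower). In B6g7 0 were called beside 10 probe sets (0.0805%; 0.0403% higher and 0.0403% lower), and in neither strain did a member reach an unadjusted p under 0.05. The medians over members were -0.01 in NOD, against 0.04 for all genes, and -0.02 in B6g7, against -0.01. Of the BDC2.5 arrays 1 of 3 was a highest-numbered one, and of the wild-type arrays 1 of 2. In NOD, Cct8 had 66.0, 117 and 509 in BDC2.5 cells and 87.9 and 693 in wild-type cells, a difference of -0.65 ± 1.05 that was -0.0012 once those arrays were left out. Dnajb6 gave -0.59 ± 0.86 in NOD and -0.48 ± 0.86 in B6g7, against -0.31 and -0.24 without them. Hspa9 in NOD gave -0.56 ± 0.39, and -0.67 without those arrays, with 302, 714 and 736 in BDC2.5 cells and 740 and 857 in wild-type cells. The BDC2.5 array numbered 1 again set that value, which was -0.14 without it. In B6g7 the largest value was that of Hspe1, 0.50 ± 0.35, which was 0.17 without the wild-type array numbered 2. In NOD the largest positive values were those of Dnajc4, 0.38 ± 0.34, and Dnajc15, 0.35 ± 0.26. Arrays did not overlap in NOD for 0 members higher (5.79% of all genes) and 2 lower (2.36%), and in B6g7 for 3 higher (4.17%) and 4 lower (6.31%).

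A pair of lists of genes that work with the chaperones were followed too. Of 24 co-chaperones and heat shock factors 0 were called in any comparison, and of 25 genes of ER folding and the unfolded protein response 0 were called in the 9 comparisons planned and 1 in the average over conditions. At 16 h in B6g7 the lists had medians of 0.15 (13 of 24 higher) and 0.07 (17 of 25 higher), or 0.018 (15 higher) and -0.014 (12 higher) without the 16 h array numbered 3. Fkbp4, an immunophilin that serves HSP90, had 752, 601 and 1165 at 16 h, against 577, 547 and 506 with no peptide (0.57 ± 0.23, unadjusted p = 0.0244), with no overlap, and 0.31 without that array. Grpel1, the exchange factor of mitochondrial HSP70, had 85.4, 105 and 117, against 134, 186 and 159 (-0.64 ± 0.32), with no overlap downward. Trib3, a target of the ATF4 branch of the unfolded protein response, gave 0.48 ± 0.24, and 0.30 without that array. Edem1, which sends misfolded ER proteins to degradation, had 132, 124 and 98.2 in NOD cells at 16 h, against 154, 197 and 161 with no peptide, and gave -0.54 ± 0.18 in NOD and -0.38 ± 0.18 in B6g7 (-0.21 without the 16 h array numbered 1). Both strains separated their peptide groups for Edem1, and its average was -0.46 ± 0.13 (unadjusted p = 0.00356, adjusted p = 0.894).

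Between strains the member of these lists with the clearest values was Eif2ak3 (PERK), the ER kinase that slows translation when BiP is drawn away from it. It had 37.9, 40.3 and 38.0 in NOD cells at 16 h, against 57.9, 68.8 and 98.7 in B6g7 cells. Without peptide it had 31.3, 36.4 and 46.1 in NOD cells, against 44.3, 105 and 106, and in wild-type cells 36.8 and 43.1 in NOD, against 76.2 and 107. At 16 h and in wild-type cells the strains were separate. Eif2ak3 gave -0.92 ± 0.30, -1.08 ± 0.30 and -1.18 ± 0.36 in those 3 comparisons (adjusted p = 0.483, 0.384 and 0.909), and their average of -1.06 ± 0.18 was called (adjusted p = 0.00826 by limma). Also lower in NOD at 16 h by value were Stip1 (HOP), the adaptor between HSP70 and HSP90, at -0.73 ± 0.35, Fkbp4 at -0.55 ± 0.23 and Asns, an ATF4 target, at -0.74 ± 0.36. Without the B6g7 16 h array numbered 3 Fkbp4 gave -0.29 and Asns -0.25, and without the NOD 16 h array numbered 3 Stip1 gave -0.41.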

How the data were processed

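The authors deposited linear intensities, 1 for each probe set on each array; background correction, probe summary and scaling method are not given in the sources used here. On the log2 scale, the medians of the deposited arrays spanned 0.11, so their scale was kept and log2 was taken with no pseudocount. Probe sets were named from the platform annotation (10833 with 1 symbol, 396 with several, 1193 with none), and 66 controls were left out. All 56 member IDs matched the mouse RefSeq table. With R 4.3.3, limma 3.58.1 (functions lmFit, contrasts.fit and eBayes, the last with its trend on intensity) fitted 1 mean per group over 16 arrays, with 10 residual and 3.60 prior degrees of freedom. Tests were two-sided, with Benjamini-Hochberg adjustment over 12422 probe sets; ± gives the standard error. The fit was tested on simulated data with independent noise and no shift shared by arrays. That test therefore does not bear on the arrays that stood apart. The small number of arrays limits the precision.

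Named genes were the main chaperones whatever their values, the 4 largest differences each way per comparison, members called and those with the widest spread, and the 2 smallest p-values per pathway list; genes outside this are marked. Members, lists and tests were chosen with earlier results of these data known, and the strain difference averaged over 3 conditions was added after its values were seen, as were family and list counts with single arrays left out. Same-numbered BDC2.5 arrays deviated together (correlations 0.165 to 0.842 over probe sets, which are not independent), so the titles' numbers were taken to pair them; for the transgene comparisons the correlations were -0.499 to 0.695, and there the numbers were not taken as pairs. Promoters (250 bases upstream, GRCm38.p6) came from RefSeq for 48 of 56 members. Motifs were matched with Python.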

Additional observations from a re-analysis of the deposited data

How the results depend on the processing

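With 2 or 3 arrays a group, and with members that vary more within groups than other genes do, differences near 1 on the log2 scale were often not detectable. The main fit held no term for array number, so shifts shared by same-numbered arrays are part of that spread. Dim members such as Hspa1b, Hspb1 and, in NOD cells, Dnajc15 come with no detection call. Counts of probe sets called and member medians were judged by unlike rules, so they cannot be compared. Over 167 counts under other settings 59 moved by over 1.5 times, and over 158 medians 1 moved by more than the spread of 0.13. That spread is larger than any member median of the main fit, so even a change of sign could pass as no move.

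For the peptide response in B6g7, where 1 probe set was called, the count was 2 with quantile normalization, 2 with log2(value + 16), 3 with the replicate block, 4 with a term for the highest-numbered arrays, 3 without those arrays, and 0 without dim probe sets, without the intensity trend or with only the groups compared. With the term it was 1 for the peptide response in NOD and 8 for the mean peptide response, which gave 7 with the replicate block. The strain difference without peptide gave 69 with the replicate block, 82 with the term and 0 with only the groups compared. The strain difference at 16 h gave 28 without dim probe sets, 129 with the block, 144 with the term, 36 without the highest-numbered arrays and 22 with only the groups compared. In wild-type cells the strain difference gave 6, 32, 47 and 0 without dim probe sets, with the block, with the term and with only the groups compared. The mean strain difference gave 101 without dim probe sets, 271 with the block and 314 with the term. For the transgene difference only the groups compared gave 1 in B6g7 and 0 in NOD, and in NOD the count was 4 without dim probe sets and 0 without the highest-numbered arrays. The cause was not tested. Fewer genes tested or fewer arrays are part of the settings that drop them.

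Without single arrays the counts ranged over 0 to 10 for the peptide response in B6g7, 0 to 0 in NOD, 0 to 10 for its mean, 15 to 24 for the strain difference without peptide, 15 to 42 at 16 h, 2 to 7 in wild-type cells and 120 to 167 in their mean, and 6 to 8 and 2 to 5 for the transgene difference in B6g7 and NOD. The member median of the last ranged between -0.15 and 0.035. Among single members, Dnajc15 at 16 h lost its call without the intensity trend (adjusted p = 0.0615), with only the groups compared (0.132) and in the cases given above, and the block, the term or the loss of 1 array added Hspa1a or Cct6a at 16 h as given; Hspa1a was also called in the mean strain difference without the B6g7 16 h array numbered 3 (-0.39, adjusted p = 0.0398). The block changed no other member call.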

Other observations

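The dimmer probe sets of 17 members give a second reading of the same genes. At 16 h of peptide in B6g7, Hspa4, which encodes an HSP110 exchange factor, gave -0.12 by its brightest probe set and 0.71 and 0.65 by the 2 next brightest (unadjusted p = 0.0059 and 0.0126), so its probe sets disagreed in sign. Dnajc2 gave 0.38 and 0.53, and Cct5 0.50 and 0.47, by their brightest and a dimmer probe set. Cct6a gave 0.71 and -0.04 and Hspd1 0.38 and -0.04, which again did not go together. None of these dimmer probe sets was called by limma. Dnajc4 ran against most members on the highest-numbered arrays, with 38.8 to 55.1 there and 56 to 83.3 on the other 10, and these ranges did not overlap.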
